A study of Homo sapiens with 3 samples.

Results

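At day 3 of a chemical induction of human fibroblasts, 605 barcodes carried at least 1.5% of their UMIs in mitochondrially encoded genes, out of 11454 day 3 barcodes (5.28%) and 37446 barcodes of the 3 libraries. They were chosen by that share alone, among barcodes that had 500 UMIs and 300 genes or more and no more than 20% of UMIs in mitochondrial genes, and are called MT-high here. They were set against the 8021 day 3 barcodes (70.0%) under 0.5%, called MT-low, to see which nuclear-encoded transcripts went with them. The remaining 2828 barcodes lay between. The levels of mitochondrial genes chose the members, so they are described and not tested. The barcodes just inside and just outside the limit held 1.503% and 1.49953%, and those just under and just over the lower limit held 0.4997% and 0.5%.

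The day 3 library, like the day 5 library, was labelled as induced neuron cells, wild type in genotype. Its source was BJ, an established human fibroblast line, which also gave the day 0 library. Per the labels, BJ cells on a poly-D-lysine coat went into neuronal induction medium with 10 µM forskolin, an activator of adenylyl cyclase, and on day 2 into maturation medium with forskolin, which was withdrawn on day 5. The sources used here do not say whether day 0 cells had met forskolin. By the labels, suspensions of nuclei were prepared at days 0 and 3 with a kit for open chromatin (ATAC), and at day 5 dissociated cells were loaded with a 3' RNA kit. The same labels call all 3 libraries single-cell transcriptomic and the files hold UMIs per gene, so the RNA chemistry behind the day 0 and day 3 levels is uncertain. There was 1 library per day, so no test was possible and every interval covers counting error only.

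Mitochondria carry their own small genome, which is transcribed inside the organelle from both strands. The heavy-strand transcript gives the ribosomal RNAs and most of the messages for subunits of the respiratory chain and ATP synthase, while the light-strand transcript gives MT-ND6. These messages stay in the organelle, so a preparation of nuclei keeps few of them, and their share is commonly read as a sign of cytoplasm in a droplet. Messages for cytosolic ribosomal proteins and for secreted proteins lie in the cytoplasm, and MALAT1 and NEAT1 are held in the nucleus.

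Across the day 3 library the median share of mitochondrial UMIs was 0.344%. At day 0 and day 5 it was 6.57% and 4.58%, and the limit of 1.5% that 5.28% of day 3 barcodes reached was reached by 99.1% and 95.2% there. The MT-high barcodes held 1499031 UMIs, of which 1425261 fell on nuclear-encoded genes, and the MT-low barcodes held 12970315 and 12937272. Their median barcode had 61 mitochondrial UMIs in MT-high and 3 in MT-low. The members had a median of 2.93%, with quartiles at 1.96% and 6.07%. Of the members' barcode sequences, 6 also named a kept barcode at day 0 and 0 at day 5.

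Levels are CPM, a gene's UMIs per 1e6 UMIs on nuclear-encoded genes, with exact Poisson 95% intervals in parentheses. On this scale the 13 mitochondrial genes did not move as 1 block. MT-ND3, MT-CO2 and MT-ATP6 stood furthest above the MT-low level, and MT-ND6 stood nearest to it. MT-CO1 took the largest number of mitochondrial UMIs in both groups. MT-CO2, a cytochrome c oxidase subunit (mitochondrial genome, GRCh38, 7586 to 8269), stood at 10501 CPM (10334 to 10671) in MT-high barcodes, against 274 CPM (265 to 283) in MT-low barcodes, a ratio of 38.3 (36.9 to 39.8). MT-ND3, a complex I subunit (10059 to 10404), stood at 2132 CPM in MT-high and 53.8 CPM in MT-low barcodes, a ratio of 39.6 (36.5 to 43.1). MT-ATP6, an ATP synthase subunit (8527 to 9207), stood at 5567 CPM in MT-high and 188 CPM in MT-low barcodes, a ratio of 29.6 (28.3 to 31.0). These are also the genes that mark the members in their label. MT-CO1, the catalytic oxidase subunit (5904 to 7445), stood at 11376 CPM in MT-high and 723 CPM in MT-low barcodes, a ratio of 15.7 (15.3 to 16.1). The other heavy-strand genes lay between a ratio of 7.63 in MT-ND5 and 21.2 in MT-ND4, and the short genes MT-ATP8 and MT-ND4L, which overlap their neighbours MT-ATP6 and MT-ND4, had ratios of 8.41 and 7.73 on 38 and 143 UMIs in MT-high barcodes.

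MT-ND6 (14149 to 14673, on the opposite strand to the other 12) stood at 131 CPM (112 to 151) in MT-high barcodes, against 68.2 CPM (63.7 to 72.8) in MT-low barcodes, a ratio of 1.91 (1.63 to 2.24). Along the mitochondrial share it stood at 68.2 CPM under 0.5%, 126 from 0.5 to 1%, 145 from 1 to 1.5%, 115 from 1.5 to 2%, 124 from 2 to 3%, 152 from 3 to 5% and 134 at 5% and over. From 0.5% on it showed no order along the share, while MT-CO2 went through 274, 844, 1751, 2743, 4392, 8136 and 22723 CPM over the same bins. In the 4 clusters of day 3 barcodes described below, MT-ND6 stood between 119.7 and 148 CPM in MT-high barcodes and between 62.4 and 92.7 CPM in MT-low barcodes. The sources used here do not say whether counting used the strand, so UMIs of MT-ND6 cannot be told apart from antisense reads of the heavy-strand transcript, and the reverse.

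**Figure D1:**
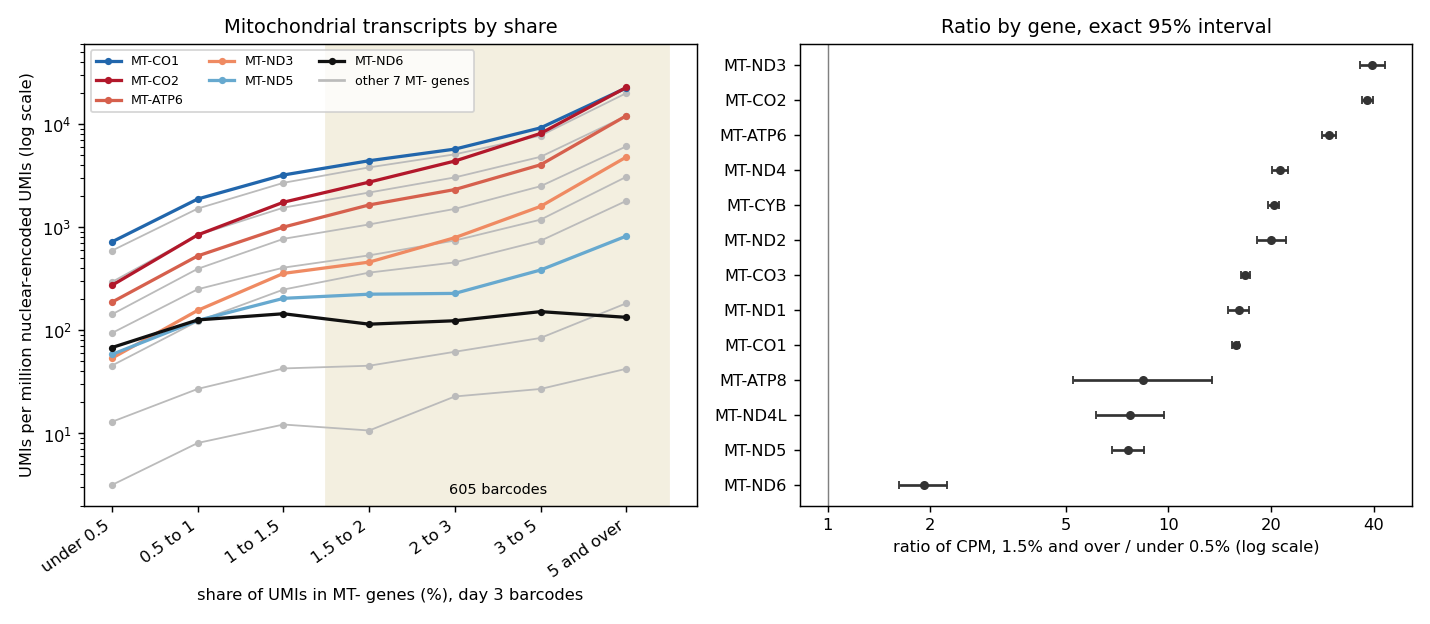
Left, CPM (log axis) of the 13 mitochondrial genes in 7 bins of the mitochondrial share, with the bins of the MT-high barcodes shaded. Right, the ratio of MT-high to MT-low levels per gene on a log axis with its exact 95% interval; MT-ND3 and MT-CO2 lie near 40 and MT-ND6 at 1.91.

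The make-up of the mitochondrial UMIs therefore differed between the groups. MT-CO2 took 20.3% of them in MT-high barcodes and 10.7% in MT-low barcodes. MT-ND3 took 4.12% and 2.11%, MT-ATP6 10.8% and 7.36%, and MT-CO1 21.98% and 28.3%, in MT-high and MT-low barcodes in that order. MT-ND6 took 0.252% (0.217 to 0.291, exact binomial) in MT-high against 2.67% (2.498 to 2.849) in MT-low barcodes. For these 5 genes, and for MT-CO3 and MT-ND4, the MT-high share lay nearer than the MT-low share to that of both other libraries. For MT-ND1, MT-ND2, MT-ATP8, MT-ND4L, MT-ND5 and MT-CYB it was not nearer to both. Over all kept barcodes MT-CO2 took 24.7% at day 0 and 18.7% at day 5, MT-ND3 6.19% and 7.27%, MT-CO1 16.1% and 13.04%, MT-ATP6 13.8% and 15.7%, and MT-ND6 0.251% and 0.549%. MT-ATP8 took 0.0515% in MT-high and 0.124% in MT-low barcodes, against 0.337% at day 0 and 0.355% at day 5. MT-ND1 took 2.93% in MT-high and 3.70% in MT-low barcodes, against 3.75% at day 0 and 2.90% at day 5.

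MT-high barcodes were deeper. Their median was 1925 UMIs (quartiles 1265 and 2878) and 1050 genes, against 1353 UMIs (1006 and 1933) and 842 genes in MT-low barcodes. Of barcodes with 500 to 1000 UMIs 2.17% were MT-high (1.68 to 2.75), then 4.40% with 1000 to 2000, 8.99% with 2000 to 4000 and 21.5% (17.4 to 25.98) with 4000 and over. The share of members climbed through all 4 bins. The median mitochondrial share did not, at 0.388%, 0.340%, 0.308% and 0.438%. Along the share the median depth was 1353 UMIs under 0.5%, 1148 from 0.5 to 1% and 1302 from 1 to 1.5%. It was 1756.5 from 1.5 to 2%, 1925 from 2 to 3% and 2020 at 3% and over. Depth thus climbed from 0.5% on, also below the limit for members.

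They also came from other clusters. Clustering of all 11454 day 3 barcodes without the mitochondrial genes gave 4 clusters. Cluster 1, led by KCNQ1OT1, PURPL and NEAT1, held 46.8% of MT-high barcodes (42.7 to 50.8) and 31.0% of MT-low barcodes. Cluster 2, led by the nuclear receptor gene RORB, the Notch target HES1, FBL and NFIB, held 6.45% (4.62 to 8.71) and 25.1%. Cluster 0, led by MATN3 and COX6B1, held 40.8% and 37.0%, and cluster 3, led by genes of dividing cells such as GTSE1, ASPM and NUSAP1, held 5.95% and 7.01%. Cluster 2 was thus scarce among the members, with 39 of them out of 2555 barcodes, and its median depth of 992 UMIs was below the 2001 of cluster 1. Its 39 members had a median of 1970 UMIs, against 1014.5 in its MT-low barcodes. They held 112848 nuclear-encoded UMIs in all, so single genes there rest on few UMIs. Free RNA was not estimated, and no doublet caller was run. Depth and cluster mix both differ between MT-high and MT-low barcodes, and their part was measured only through alternative comparisons. These weighted MT-low barcodes to the members' clusters, UMI bins or both, left out cluster 2, limited depth, or thinned barcodes to 500 UMIs.

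**Figure D2:**
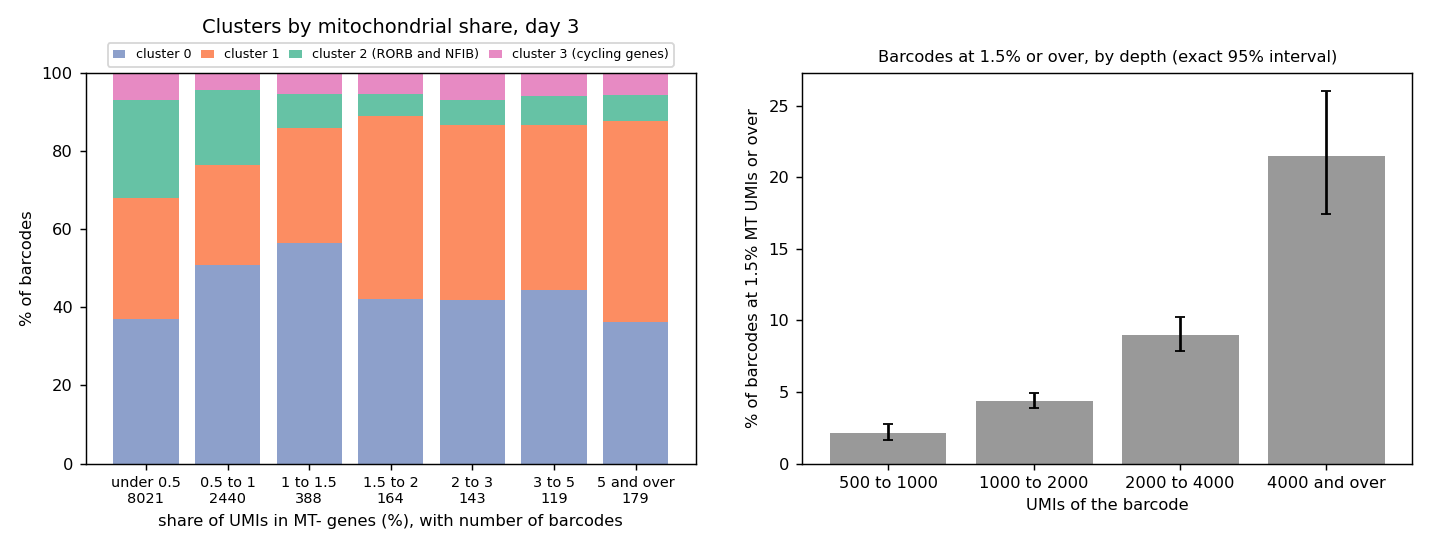
Left, percent of day 3 barcodes in each of 4 clusters for 7 bins of the mitochondrial share, with the number of barcodes under each bar; cluster 2 shrinks with the share, 25.1% under 0.5% and 6.70% at 5% and over. Right, percent of barcodes that were MT-high in 4 bins of UMIs, with exact 95% binomial intervals.

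Genes for cytosolic ribosomal proteins held no call of a higher level in MT-high barcodes. A gene was called higher or lower when its CPM differed at least 1.5-fold, the larger level was at least 20 CPM and the intervals did not overlap. Of 7654 nuclear-encoded genes at that level, 44 (0.575%) were higher and 430 (5.62%) lower in MT-high barcodes. Counts for lists are given over the list or its measured genes, and only members at 20 CPM or more could be called. Of the 79 genes for cytosolic ribosomal proteins, 0 were higher and 1, RPS21, was lower; a list of this size would hold few higher calls at the share over all genes, so the count of 0 says little by itself. The median log2 ratio of these 79 was -0.13, beside -0.01 over all 15982 nuclear-encoded genes with at least 10 UMIs and -0.07 over the 7654. Summed, they stood at 37964 CPM in MT-high barcodes and 42364 CPM in MT-low barcodes. The barcodes between them had the highest sum, 49128 CPM, so the level did not climb with the mitochondrial share. Along the 7 bins, from under 0.5% to 5% and over, it was 42364, 49484, 47178, 42311, 41470.4, 33525 and 34866 CPM. Clusters differed: in clusters 0, 1, 2 and 3 the sum was 55252, 30150.3, 44830.2 and 30540 CPM in MT-high barcodes, against 48809, 31656, 61866 and 30490 CPM in MT-low barcodes, above the MT-low level in cluster 0 and below it in cluster 2. Ribosomal protein genes have many near-identical copies, so single counts are uncertain.

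Of single genes, EEF1A1, TPT1 and FTH1 stood close together in both groups, and RPS21, EIF3H and EIF3A were called lower in MT-high barcodes. The elongation factor gene EEF1A1 stood at 1138 CPM (1083 to 1195) in MT-high barcodes, against 1163 CPM (1145 to 1182) in MT-low barcodes. TPT1, a translationally controlled tumour protein gene, stood at 533 CPM in MT-high and 549 CPM in MT-low barcodes, and the ferritin heavy chain gene FTH1 at 1817 CPM in MT-high and 1979.7 CPM in MT-low barcodes. The intervals of EEF1A1 and TPT1 overlapped between the groups and those of FTH1 did not. RPS21, in the small ribosomal subunit, stood at 544 CPM in MT-high and 902 CPM in MT-low barcodes, but at 700.3 CPM in MT-low barcodes weighted to the members' clusters, where it was no longer called lower. Of 31 translation factor genes 0 were higher and 2 lower, EIF3H at 48.4 CPM in MT-high and 77.6 CPM in MT-low barcodes and EIF3A at 168 CPM in MT-high and 260.4 CPM in MT-low barcodes, both subunits of an initiation factor, and 0 of either kind with clusters weighted. Without weights 0.575% of the 7654 genes were higher and 5.62% lower.

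Nuclear-encoded parts of mitochondria were called at about the share over all genes, 0.575% higher and 5.62% lower. Of 70 genes for the respiratory chain and ATP synthase 0 were higher and 4 lower in MT-high barcodes, with a median log2 ratio of -0.13. The 4 were the ATP synthase subunit genes ATP5MC1, at 66.7 CPM in MT-high and 109.9 CPM in MT-low barcodes, and ATP5MC2, at 156 CPM in MT-high and 236 CPM in MT-low barcodes, the cytochrome c gene CYCS, at 27.4 CPM in MT-high and 43.2 CPM in MT-low barcodes, and the complex I gene NDUFB9, at 98.9 CPM in MT-high and 153 CPM in MT-low barcodes. Of 61 mitochondrial ribosomal protein genes 0 were higher and 3 lower, of 28 import and chaperone genes 0 and 1, and of 22 genes that make, process or stabilise mitochondrial RNA 0 and 0. In these lists 49, 21 and 14 genes reached 20 CPM. With clusters weighted 1 respiratory chain gene was lower and 0 genes of the other 3 lists. The import gene called lower was TIMM44, a part of the inner membrane motor, at 18.9 CPM in MT-high and 32.9 CPM in MT-low barcodes. In the list on mitochondrial RNA TEFM, an elongation factor of mitochondrial transcription, stood at 80.7 CPM in MT-high and 63.6 CPM in MT-low barcodes, and GRSF1, which binds light-strand RNA, at 62.4 CPM in MT-high and 51.6 CPM in MT-low barcodes. The mitochondrial genes summed to 51759 CPM in MT-high and 2554 CPM in MT-low barcodes, a ratio of 20.3. The summed respiratory chain genes had a ratio of 0.892 (0.873 to 0.912), a log2 ratio of -0.16, and -0.07 with clusters weighted. Clusters differed in this sum, with log2 ratios of 0.13, -0.12, -0.56 and 0.02 in clusters 0, 1, 2 and 3.

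Other housekeeping groups differed in their summed ratios, 0.768 for S100, galectin and annexin genes, 0.807 for the proteasome, 0.900 for filament genes and 0.936 for glycolysis. In log2 these were -0.38, -0.31, -0.15 and -0.09, and -0.21, -0.20, -0.08 and -0.05 with clusters weighted. In cluster 0 alone the log2 ratios were -0.04, -0.09, 0.05 and 0.17 in the same order. The unweighted counts below stand beside 0.575% higher and 5.62% lower over the 7654 genes. Of 24 proteasome genes 0 were higher and 3 lower, with a median log2 ratio of -0.28, led by PSMB3 at 50.5 CPM in MT-high and 88.8 CPM in MT-low barcodes. With clusters weighted 0 were lower and the median was -0.17. Of 18 glycolysis genes 0 were called, and PKM, the last enzyme of the pathway, stood at 391.5 CPM in MT-high and 341 CPM in MT-low barcodes, a ratio of 1.15 (1.05 to 1.25). Of 39 actin, tubulin and filament genes 1 was higher, the myosin light chain gene MYL9 at 28.8 CPM in MT-high and 18.1 CPM in MT-low barcodes, and 2 were lower, the tubulin genes TUBB2A at 15.4 CPM in MT-high and 31.4 CPM in MT-low barcodes and TUBA1C at 54.7 CPM in MT-high and 84.3 CPM in MT-low barcodes, each with close paralogs that could share reads. With clusters weighted 0 filament genes were higher and 1 lower. Of 16 S100, galectin and annexin genes 0 were higher and S100A4 was lower, at 524 CPM in MT-high and 926 CPM in MT-low barcodes. With MT-low barcodes weighted to the members' clusters S100A4 stood at 762.5 CPM there and was not called.

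**Figure D3:**
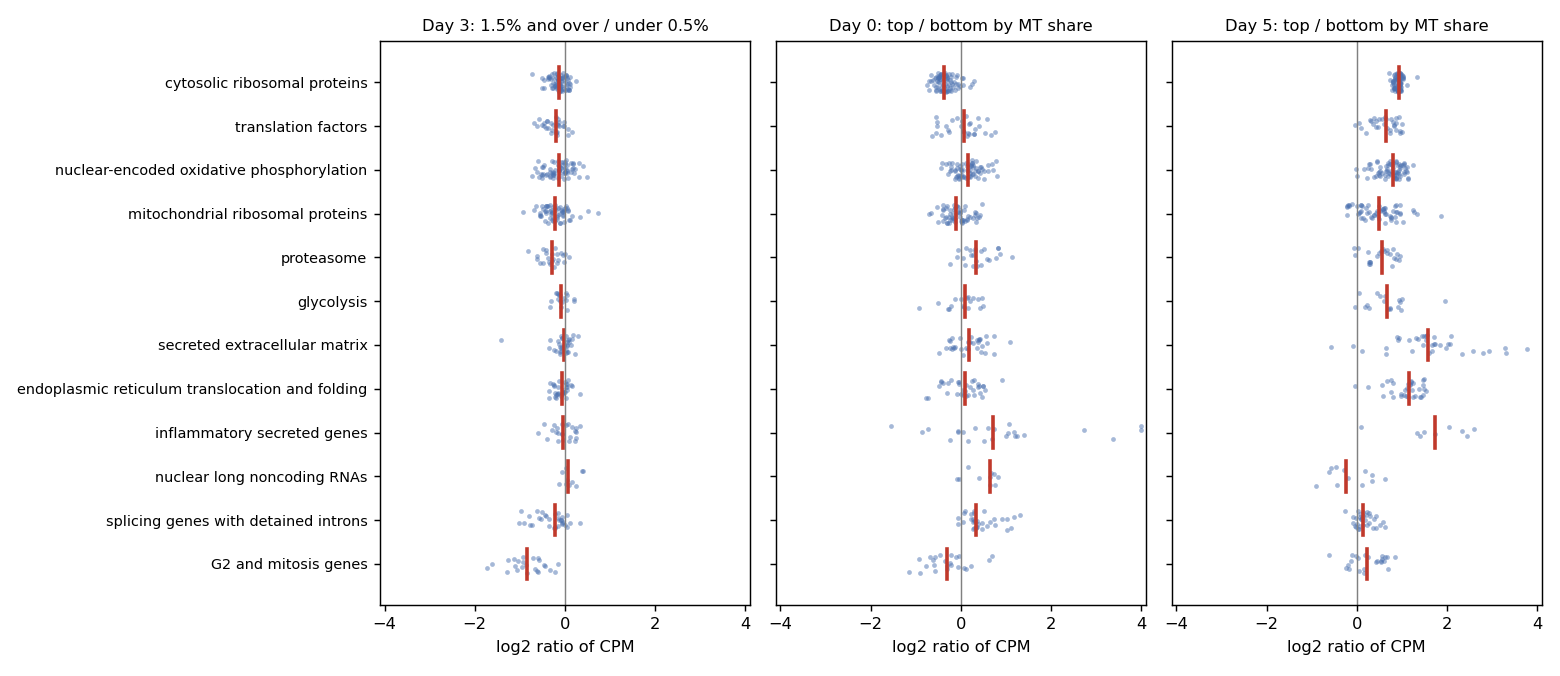
Each point is the log2 ratio of CPM of 1 gene, with the list's median as a bar, for MT-high over MT-low barcodes at day 3 (left) and for barcodes at the top over the bottom of the mitochondrial share at day 0 (middle) and day 5 (right); values beyond 4 are drawn at 4 or -4. Ribosomal protein genes centre on -0.13 at day 3, -0.37 at day 0 and 0.93 at day 5.

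Pooled over the clusters, secretory and fibroblast genes were near level, but clusters differed. In clusters 0, 1, 2 and 3 the summed log2 ratio was 0.20, -0.01, -0.26 and 0.27 for secreted matrix genes. It was 0.07, -0.09, -0.39 and 0.05 for endoplasmic reticulum translocation and folding, and 0.08, -0.04, -0.36 and -0.04 for fibroblast genes. The counts of calls here again stand beside 0.575% higher and 5.62% lower over the 7654 genes. Of 34 genes of endoplasmic reticulum translocation and folding 0 were called, with a median log2 ratio of -0.06; SSR1, a subunit of the translocon-associated complex, stood at 113 CPM in MT-high and 89.3 CPM in MT-low barcodes and SEC62, a translocation factor, at 311 CPM in MT-high and 399.7 CPM in MT-low barcodes. Of 34 measured genes of secreted matrix 0 were higher and 1 lower, the proteoglycan gene BGN at 9.12 CPM in MT-high and 24.4 CPM in MT-low barcodes. The collagen gene COL1A2 stood at 2457 CPM (2376 to 2539.8) in MT-high barcodes, against 2312 CPM (2286 to 2338) in MT-low barcodes, and COL1A1 at 307 CPM in MT-high and 391 CPM in MT-low barcodes. Of 25 inflammatory secreted genes 0 were higher and IL6 was lower, at 77.9 CPM in MT-high and 118 CPM in MT-low barcodes, a log2 ratio of -0.60, which was -0.56 and uncalled with clusters weighted. Of 20 fibroblast genes 0 were higher and 2 lower, S100A4 and the mesenchymal factor gene PRRX1 at 85.6 CPM in MT-high and 202 CPM in MT-low barcodes. VIM, a filament gene, stood at 1252 CPM in MT-high and 1376 CPM in MT-low barcodes. Of 20 antioxidant and iron genes and 12 messages known from cell protrusions 0 were called. Of 9 metallothionein genes 4 reached 20 CPM, with 0 higher and 1 lower, MT1M at 51.2 CPM in MT-high and 81.5 CPM in MT-low barcodes. Of 16 cytoplasmic and small nucleolar host RNAs 8 were found and 7 reached 20 CPM. Of these 0 were higher and 1 lower, CYTOR at 15.4 CPM in MT-high and 27.4 CPM in MT-low barcodes.

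RNAs held in the nucleus were not called lower in MT-high barcodes. Of 14 nuclear long noncoding RNAs, 11 were found and 9 reached 20 CPM, with 0 called in either direction and a median log2 ratio of 0.08. With clusters weighted the median was -0.06 and again 0 were called. Over all genes at 20 CPM or more 5.62% were lower and 0.575% higher, so 0 calls among 9 say little by themselves. MALAT1 stood at 258616 CPM (257782 to 259453) in MT-high barcodes, against 217325 CPM (217071 to 217579) in MT-low barcodes, a ratio of 1.19. NEAT1, the RNA that scaffolds paraspeckles, stood at 19404 CPM in MT-high and 14656 CPM in MT-low barcodes, a ratio of 1.32 (1.31 to 1.34). Both lay under 1.5-fold, with the higher level in MT-high barcodes and intervals that did not overlap. Clusters differed here too: in clusters 0, 1, 2 and 3 the sum of the list, nearly all MALAT1 and NEAT1, was 230845, 308976, 258436 and 283905 CPM in MT-high barcodes, against 231798, 281560, 134715 and 258464 CPM in MT-low barcodes. It was level in cluster 0, with a log2 ratio of -0.00594, and furthest above the MT-low level in cluster 2, at 0.94. With MT-low barcodes weighted to the members' clusters the MALAT1 log2 ratio was 0.14 in place of 0.25, and that of NEAT1 0.26 in place of 0.40. The median barcode gave 22.3% of its nuclear-encoded UMIs to MALAT1 in MT-high, 19.6% in MT-low and 16.9% in the barcodes between, and 4.03%, 4.47% and 5.29% to ribosomal proteins in the same order.

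**Figure D4:**
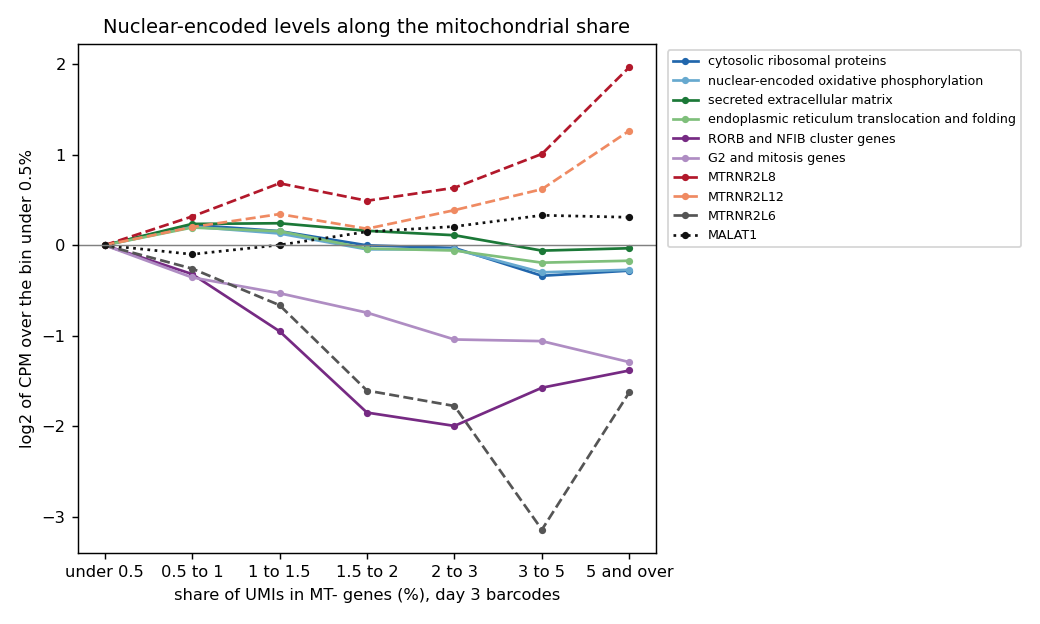
Level of 6 gene lists, 3 MTRNR2L copies and MALAT1 along 7 bins of the mitochondrial share, as log2 of the CPM over that of barcodes under 0.5%. MTRNR2L8 and MTRNR2L12 end above all other lines, ribosomal protein genes peak from 0.5 to 1%, and the RORB and NFIB list and MTRNR2L6 end lowest.

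Of all nuclear-encoded genes at 50 CPM or more, the one with the largest ratio was MTRNR2L8, a copy of mitochondrial sequence. The MTRNR2L genes are nuclear copies of MT-RNR2, the large mitochondrial ribosomal RNA gene, and hold a short reading frame like that of the peptide humanin. Of 11 such genes 4 reached 20 CPM at day 3, and 2 were higher and 2 lower in MT-high barcodes. The reading frames of the 4 are shown to compare their likeness to the ribosomal RNA, from GENCODE 29 on GRCh38, each on its coding strand. Capitals mark bases that differ from MT-RNR2, for which the matching stretch is given first.
MT-RNR2 (chrM:2633-2707, plus strand): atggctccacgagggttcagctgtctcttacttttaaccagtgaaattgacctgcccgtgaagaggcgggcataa
MTRNR2L8 (chr11:10508152-10508226, minus strand): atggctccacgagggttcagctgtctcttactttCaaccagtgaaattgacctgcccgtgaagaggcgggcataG
MTRNR2L12 (chr3:96617199-96617273, minus strand): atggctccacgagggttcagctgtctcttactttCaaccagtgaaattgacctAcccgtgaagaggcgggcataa
MTRNR2L6 (chr7:142667231-142667305, plus strand): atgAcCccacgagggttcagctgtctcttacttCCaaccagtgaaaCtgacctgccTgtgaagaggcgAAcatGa
MTRNR2L10 (chrX:55181920-55181994, minus strand): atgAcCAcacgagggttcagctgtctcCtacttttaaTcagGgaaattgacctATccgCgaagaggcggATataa
Over these 75 bases MTRNR2L8 and MTRNR2L12 differed from MT-RNR2 at 2 positions each, MTRNR2L6 at 9 and MTRNR2L10 at 11. Over the whole aligned transcript MTRNR2L12 was 95.04% identical, MTRNR2L8 93.0%, MTRNR2L6 84.0% and MTRNR2L10 80%. MT-RNR2 itself is not among the counted features, so whether its UMIs were counted to a copy was not tested, and the levels of the copies are uncertain.

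Of the 4, the copies most like MT-RNR2 were the ones higher in MT-high barcodes. MTRNR2L8 (chromosome 11, 10507887 to 10509189) stood at 746 CPM (702 to 792) in MT-high barcodes, against 317 CPM (308 to 327) in MT-low barcodes, a ratio of 2.35 (2.19 to 2.51). MTRNR2L12 (chromosome 3, 96617188 to 96618236) stood at 276 CPM (249.8 to 305) in MT-high barcodes, against 167 CPM (160.2 to 174) in MT-low barcodes, a ratio of 1.65 (1.48 to 1.84). Along the share MTRNR2L8 stood, from under 0.5% upwards, at 317, 395, 509.8, 446, 493, 638 and 1240.4 CPM, the highest level at 5% and over. Within clusters 0, 1, 2 and 3 it stood at 705, 754, 824 and 742 CPM in MT-high barcodes, against 326, 359, 161 and 424 CPM in MT-low barcodes. The higher level in MT-high barcodes was thus present in each of the 4 clusters. Thinned to 500 UMIs, 25.5% of MT-high barcodes (22.03 to 29.1) and 14.0% of MT-low barcodes (13.2 to 14.7) held a UMI of it, and 62.3% of MT-high and 34.1% of MT-low barcodes before thinning.

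The less alike copies went the other way and stood highest in cluster 2. Both are among the leading genes of cluster 2, which was made from these same counts. MTRNR2L6 (chromosome 7, 142666272 to 142667718) stood at 24.6 CPM in MT-high and 89.4 CPM in MT-low barcodes, a log2 ratio of -1.86, and MTRNR2L10 (chromosome X) at 13.3 CPM in MT-high and 45.2 CPM in MT-low barcodes, -1.76. In MT-low barcodes of cluster 2 they stood at 365 and 187 CPM, and in those of cluster 1 at 16.6 and 8.69 CPM. With the clusters weighted both were still called lower, at log2 ratios of -0.98 and -0.87, but with clusters and UMI bins weighted together both calls were lost, at -0.49 and -0.17. In cluster 0 MTRNR2L10 stood at 15.96 CPM in MT-high and 14.0 CPM in MT-low barcodes. At day 0 the barcodes with most mitochondrial UMIs held MTRNR2L8 at 6948 CPM against 2183 CPM at the bottom, a log2 ratio of 1.67, beside 1.69 for the summed mitochondrial genes. MTRNR2L6 had 0 UMIs at the top and 10 at the bottom there. At day 5, counted on a feature table of 36601 genes in place of 33538, MTRNR2L8 had 1 UMI at the top and 5 at the bottom, too few to compare.

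Apart from the copies, few genes were called higher. The 12 named genes furthest above were PURPL, NLRP1, CORO1C, ZBTB8A, WAC-AS1, CTBS, FBXO32, ATP8B4, DUSP4, TMEM136, ABHD5 and EXOC3-AS1, and the last 5 lay under 1.5-fold. PURPL, a long noncoding RNA that p53 induces, stood at 85.6 CPM (71.1 to 102) in MT-high barcodes, against 50.7 CPM (46.9 to 54.7) in MT-low barcodes, a ratio of 1.69 (1.38 to 2.05). It is a leading gene of cluster 1, and against MT-low barcodes weighted to the members' clusters, at 57.5 CPM, it was not called. NLRP1, an inflammasome sensor, stood at 65.3 CPM in MT-high and 40.2 CPM in MT-low barcodes and at 40.2 CPM in MT-low barcodes so weighted. CORO1C, an actin-binding coronin, stood at 53.3 CPM in MT-high and 32.9 CPM in MT-low barcodes, and ABHD5, a co-activator of fat breakdown, at 268 CPM in MT-high and 184 CPM in MT-low barcodes, a ratio of 1.46 (1.31 to 1.63). WAC-AS1 and EXOC3-AS1 are antisense genes, whose reads cannot be told apart from those of their partners without strand.

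The 44 calls rest on few UMIs, since 20 CPM is under 30 UMIs in the MT-high pool, and 10 of the 44 reached 50 CPM. A set of 9 was called higher in each of the comparisons weighted to UMI bins, to clusters and to both, and without cluster 2. These were MTRNR2L8, MTRNR2L12, NLRP1, LCNL1, ADAMTS4, BEX1, NAPEPLD, ZNF697 and PHLDA2, singled out after their values were seen. ADAMTS4, an enzyme that cuts aggrecan, had 37 UMIs in MT-high barcodes (25.96 CPM) and 136 in MT-low barcodes (10.5 CPM). The imprinted gene PHLDA2 had 55 UMIs (38.6 CPM) in MT-high and 289 (22.3 CPM) in MT-low barcodes, and NAPEPLD, which makes fatty acid ethanolamides, 60 UMIs (42.1 CPM) in MT-high and 320 (24.7 CPM) in MT-low barcodes.

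The genes called lower were fewer once cluster mix and depth were made alike. With MT-low barcodes weighted to the members' clusters, 158 of 7601 genes (2.08%) were lower and 28 (0.368%) higher, and 139 and 23 of these were also called without weights. Weighted to the members' UMI bins 219 (2.87%) were lower and 53 (0.695%) higher, and weighted to both together 82 (1.09%) and 38 (0.503%). Without cluster 2 in either group 168 (2.21%) were lower and 26 (0.342%) higher. A set of 52 of the 430 was lower in all 4 of these.

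The 12 furthest below were RORB, TOP2A, HES1, HIST3H2A, FBL, NFIB, TGFBR1, VLDLR, CBX1, SMC2, RGS2 and ZCCHC7. Each stood higher in the MT-low barcodes of cluster 2 than in the pooled MT-low barcodes. The clusters were made from these same nuclear-encoded counts, and RORB, HES1, FBL and NFIB are leading genes of cluster 2. Their higher level there, and their smaller differences with clusters weighted, were therefore partly fixed by the clustering. RORB (chromosome 9, 74497365 to 74693177) stood at 11.9 CPM (6.95 to 19.1) in MT-high barcodes, against 72.8 CPM (68.2 to 77.6) in MT-low barcodes, a log2 ratio of -2.61. Within cluster 2 RORB stood at 106 CPM in the 39 MT-high barcodes and 348 CPM in MT-low barcodes. Thinned to 500 UMIs, 0.331% of MT-high barcodes (0.0401 to 1.19) and 4.11% of MT-low barcodes held a UMI of it, and 2.31% and 8.68% before thinning. TOP2A, the topoisomerase of dividing cells (chromosome 17, 40388516 to 40417950), stood at 123 CPM (105 to 142) in MT-high barcodes, against 409 CPM (398 to 419.9) in MT-low barcodes, a log2 ratio of -1.74. Within clusters 0, 1, 2 and 3 it stood at 79.8, 44.7, 461 and 519.5 CPM in MT-high barcodes, against 124, 80.1, 1259 and 931 CPM in MT-low barcodes, lower in each.

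HES1 stood at 32.3 CPM in MT-high and 99.9 CPM in MT-low barcodes and FBL, a nucleolar RNA methyltransferase, at 44.9 CPM in MT-high and 128 CPM in MT-low barcodes. NFIB, a transcription factor gene, stood at 22.5 CPM in MT-high and 61.7 CPM in MT-low barcodes, and at 32.4 CPM in MT-low barcodes weighted to the members' clusters, where it was not called; without cluster 2 its log2 ratio was 0.027, in place of -1.46. VLDLR, a lipoprotein and reelin receptor, stood at 20.3 CPM in MT-high and 55.5 CPM in MT-low barcodes and RGS2, a regulator of G protein signalling, at 33.7 CPM in MT-high and 88.9 CPM in MT-low barcodes. TGFBR1, a receptor of transforming growth factor beta, stood at 66.7 CPM in MT-high and 183 CPM in MT-low barcodes. RGS2, VLDLR and TOP2A were among the 52 that held.

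**Figure D5:**
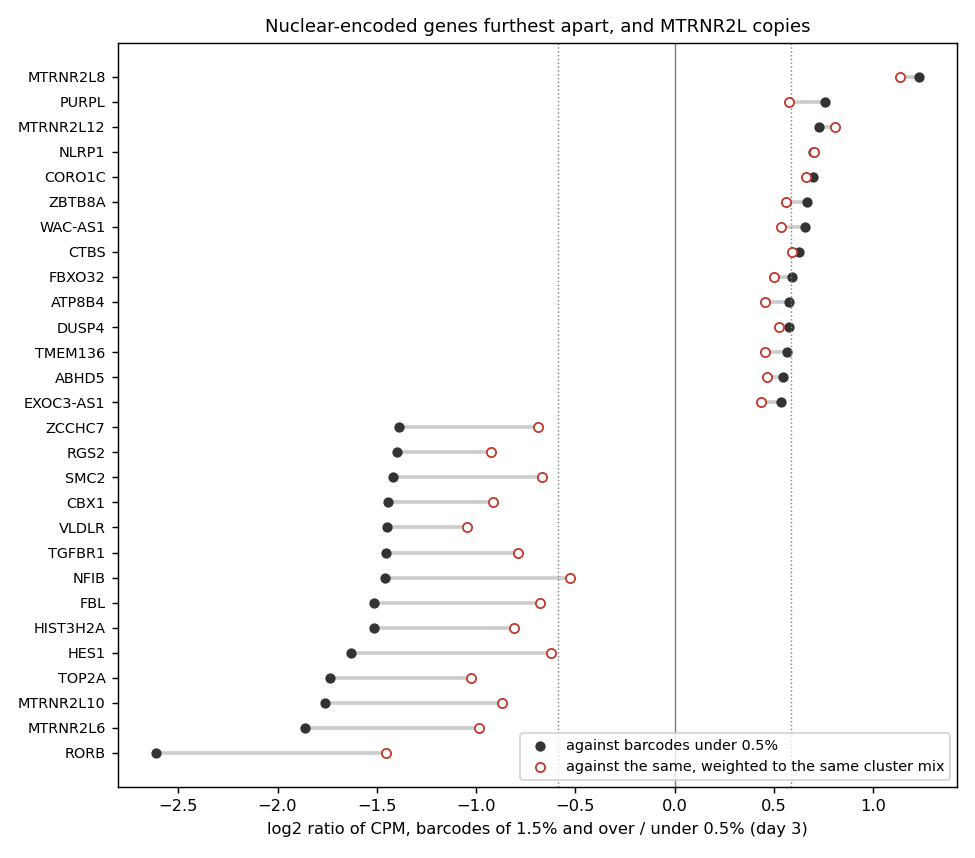
Log2 ratio of CPM, MT-high over MT-low, of the 12 named genes furthest above, the 12 furthest below and 4 MTRNR2L copies, against all MT-low barcodes (filled) and against MT-low barcodes weighted to the members' cluster mix (open). Dotted lines mark 1.5-fold. The lower genes move towards 0 with the weights, RORB to -1.45, while MTRNR2L8 stays at 1.13.

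Of 24 genes of G2 and mitosis 15 reached 20 CPM. Of these 12 were lower in MT-high barcodes and 0 higher, where 5.62% of the 7654 genes were lower. The median log2 ratio of the 24 was -0.85. Weighted to the members' clusters 3 were lower, where 2.08% of genes were, with a median of -0.54: TOP2A, the spindle factor TPX2 at 12.6 CPM in MT-high and 23.9 CPM in weighted MT-low barcodes and the kinesin KIF20B at 26.7 CPM in MT-high and 44.2 CPM in weighted MT-low barcodes. MKI67, a marker of cycling cells, stood at 28.8 CPM in MT-high and 39.7 CPM in MT-low barcodes and was not called. Summed, the list stood at 1168, 913, 809, 697, 568, 561 and 477 CPM along the 7 bins of the mitochondrial share, falling throughout. In clusters 0, 1, 2 and 3 the sum was 426, 270.3, 1001 and 2950.1 CPM in MT-high barcodes, against 529, 340.1, 2156 and 4521 CPM in MT-low barcodes, lower in MT-high barcodes of each.

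Of 33 splicing genes known for introns that are kept back in the nucleus 7 were lower and 0 higher, with a median log2 ratio of -0.21; with clusters weighted 0 were called. The background for this and the next lists is again 5.62% lower and 0.575% higher, over genes at 20 CPM or more. In the splicing, immediate early, heat shock, stress response and p53 lists 32, 15, 9, 13 and 19 genes reached that level. OGT, the O-GlcNAc transferase, stood at 394 CPM in MT-high and 796 CPM in MT-low barcodes and at 2556 CPM in MT-low barcodes of cluster 2. The splicing factor genes SRSF7 and SRSF1 stood at 305 CPM in MT-high and 595 CPM in MT-low barcodes, and at 243 CPM in MT-high and 458 CPM in MT-low barcodes. Of 25 immediate early genes 4 were lower and 0 higher, KLF4, IER5, JUNB and JUN, and 1 of them, IER5, with clusters weighted. IER5 stood at 23.2 CPM in MT-high and 47.1 CPM in MT-low barcodes, and JUN, a subunit of AP-1, at 68.8 CPM in MT-high and 104 CPM in MT-low barcodes. KLF4 stood at 19.6 CPM in MT-high and 40.04 CPM in MT-low barcodes, and its log2 ratio of -1.03 turned to 0.31 with clusters and depth weighted together. Of 12 heat shock genes DNAJB4 was lower, at 29.5 CPM in MT-high and 53.1 CPM in MT-low barcodes, and of 18 genes of the stress response to unfolded proteins and amino acid shortage 1 was lower, VLDLR. Of 20 p53 targets 0 were called, with a median log2 ratio of 0.07; the cell cycle inhibitor CDKN1A stood at 218 CPM in MT-high and 169 CPM in MT-low barcodes and the p53 ligase gene MDM2 at 393 CPM in MT-high and 306 CPM in MT-low barcodes. No list outside the mitochondrial copies and the filament genes held a gene called higher.

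Markers of other cell types were low in both groups, and fibroblast genes such as COL1A2 and VIM high. Of 19 pan-neuronal genes 4 reached 20 CPM and 0 were called, their sum was 237 CPM in MT-high and 270.2 CPM in MT-low barcodes, and DCX, ELAVL4, NEFL, NEFM and STMN2 had 0 UMIs in both, although the library was labelled as induced neurons. UCHL1, a ubiquitin hydrolase gene, made up most of that sum, at 139 CPM in MT-high and 155 CPM in MT-low barcodes. Epithelial genes summed to 58.9 CPM in MT-high and 62.1 CPM in MT-low barcodes, endothelial genes to 50.5 CPM in MT-high and 49.2 CPM in MT-low barcodes and immune genes to 7.02 CPM in MT-high and 8.81 CPM in MT-low barcodes, with 0 called in each; CDH1, ESRP1, KRT5, KRT14 and KRT19 of the epithelial list, CDH5 of the endothelial list and CD3D of the immune list had 0 UMIs in both groups. Medians by intron length lay close together, while the share called lower was largest for the longest introns. The median log2 ratio was -0.07 in 3015 genes with under 20000 bases of intron, -0.06 in 3161 with up to 100000 and -0.09 in 1473 with more. Of these 5.17%, 5.35% and 7.13% were called lower. With clusters weighted the medians were -0.054, -0.067 and -0.085.

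The same question was put to the other 2 libraries, which the rule did not use, by taking the same shares of barcodes, the top 5.28% and the bottom 70.0% by mitochondrial share. At day 5 the cytoplasmic lists were higher at the top. All 79 ribosomal protein genes were higher and 0 lower, where 1539 of 8931 genes (17.2%) were higher and 581 (6.51%) lower. The median log2 ratio of the 79 was 0.93, beside 0.27 over the genes at that level. Of 70 respiratory chain genes 51 were higher, of 34 genes of endoplasmic reticulum translocation and folding 30, of 36 secreted matrix genes 26 and of 24 proteasome genes 11, each with 0 lower. MALAT1 stood at 63624 CPM at the top against 77675 at the bottom, and EEF1A1 at 798 CPM at the top against 439 at the bottom. COL1A2 had 402 CPM at the top and 131 CPM at the bottom, and VIM had 1908 CPM at the top and 914 CPM at the bottom. Cell type markers moved with these lists at day 5. Of 19 fibroblast genes 9 were higher and 0 lower at the top, with a sum of 3876 CPM at the top and 1510.4 CPM at the bottom. Of 19 pan-neuronal genes 1 was higher and 7 lower, with a sum of 3454 CPM at the top and 4521 CPM at the bottom. SNAP25, of the synaptic fusion machinery, had 30.7 CPM at the top and 59.4 CPM at the bottom. The part of this shift in cell types in the other lists was not tested. The 487 top barcodes held at least 12.6% mitochondrial UMIs and a median of 3610 UMIs, against 4680 in the 6456 bottom barcodes.

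At day 0, 729 of 6671 genes (10.9%) were higher and 450 (6.75%) lower at the top, and the ribosomal protein genes had 0 higher and 7 lower, with a median log2 ratio of -0.37. Of 10 nuclear noncoding RNAs 5 were higher, among them MALAT1 at 52396 CPM at the top and 32807 CPM at the bottom, and NEAT1 at 9006 CPM at the top and 5778 CPM at the bottom. There the 886 top barcodes had a median of 802 UMIs and the 11746 bottom barcodes 19237, so depth ran against the mitochondrial share, the reverse of day 3, and its part was not tested. MT-ND6 kept step with the other mitochondrial genes at day 0, at 572 CPM at the top and 162 CPM at the bottom, a ratio of 3.54 beside 3.26 for MT-CO1 and 2.77 for MT-CO2. At day 5 its ratio was 3.70 beside 4.96 and 5.42, and at day 3 1.91 beside 15.7 and 38.3.

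Few of the genes called at day 3 were called in the same direction elsewhere. Of 43 genes higher at day 3 and measured at day 0, 4 were higher and 0 lower there, and of 41 measured at day 5, 4 and 2. Of 426 lower at day 3 and measured at day 0, 18 were lower and 33 higher, and of 417 at day 5, 9 and 47. Each of these shares lay under the background share of that library and direction, which counts only genes at 20 CPM or more. NLRP1 stood at 195 CPM at the top and 138 CPM at the bottom at day 0, and at day 5 at 22.6 CPM at the top and 14.6 CPM at the bottom, where it was called higher.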

How the data were processed

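The deposited files hold UMI counts per gene and barcode, without normalization by the authors, for 1 library each of days 0, 3 and 5. Cell Ranger 4.0.0 and hg38 (GRCh38) are named in the submitters' processing notes. The use of introns and strand, and the calling of barcodes, are not given in the sources used here. Day 5 came unfiltered, and its cells were taken from 2154 UMIs on (0.1 of the 99th percentile over the deepest 10000 barcodes). Of 11488 day 3 barcodes 11454 passed the filters given in the report. Depth, 1499031 UMIs in the members and 12970315 in the barcodes under 0.5%, sets the precision, and 3 UMIs are 2.10 and 0.232 CPM.

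UMIs were summed per group and divided by the sum over nuclear-encoded genes. In ratios that call, rank or summarise genes, a group under 3 UMIs was set at 3. List medians cover members with at least 10 UMIs over both groups. Genes on chromosome Y and XIST were never printed. Clusters came from scanpy 1.11.5 and igraph 0.11.9 (Leiden at resolution 0.5 on 15 neighbours, 30 components and 2000 variable genes of log counts per 10000, without mitochondrial genes). Weighted comparisons give each cluster or UMI bin of the low barcodes the members' share of UMIs, with intervals from effective counts. The size rule and the weights were tested on simulated data. Coordinates, introns and transcripts are those of GENCODE 29, and copies were aligned locally to MT-RNR2 with Biopython 1.88. The members, the 32 gene lists and the rules were chosen with earlier results of these data known. Named genes were the 12 furthest on each side at 50 CPM or more with separate intervals (without clones, LINC, ribosomal protein, mitochondrial, MTRNR2L and Y-linked genes), up to 4 per list at 20 CPM or more, 11 fixed genes and the 13 mitochondrial ones. Alternatives covered the limits on the share, depth, denominators, the median of ratios, TMM from edgeR 4.0.16 (R 4.3.3), mean CPM per barcode, thinning, weights and the call limits.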

Additional observations from a re-analysis of the deposited data

Results flagged for a closer look

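In 7 lists the barcodes with more mitochondrial RNA had the lower summed level at day 3 and the higher one at day 5, with log2 ratios at least 1 apart; each day is 1 library and the difference was not tested. For cytosolic ribosomal proteins the summed log2 ratio was -0.16 at day 3 and 0.93 at day 5, day 3 minus day 5 -1.08. For endoplasmic reticulum translocation and folding it was -0.11 and 1.21, -1.32 apart, and for fibroblast genes -0.08 and 1.36, -1.44 apart. The differences were -1.03 for actin, tubulin and filament genes, -1.39 for S100, galectin and annexin genes, -1.15 for heat shock genes and -1.35 for G2 and mitosis genes. Clusters differed at day 3. In cluster 0 the summed log2 ratio was 0.18 for ribosomal proteins, 0.07 for endoplasmic reticulum, 0.08 for fibroblast and 0.05 for filament genes. For S100, heat shock and mitosis lists it was -0.04, -0.07 and -0.31 there. With clusters weighted the 7 lists, in that order, stood at -0.02, -0.05, -0.03, -0.08, -0.21, -0.21 and -0.57. Preparation, per the labels nuclei at day 3 and dissociated cells at day 5, cannot be told apart from the day.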

How the results depend on the processing

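No paired analysis was possible because each day is 1 library with no replicates, and with none no replicate could be left out. The count of 44 genes higher was 5 with a 2-fold limit, 10 with a 50 CPM limit, 24 with members from 1%, 26 with all UMIs as denominator and cluster 2 left out, 28 with clusters weighted, 68 with barcodes thinned to 500 UMIs, 75 with members from 3%, 83 with no CPM limit, 97 with MALAT1 and ribosomal proteins out of the denominator, 101 with MALAT1 out of the denominator. The count of 430 lower was 82 with clusters and UMI bins weighted, 112 with a 2-fold limit, 158 with clusters weighted, 168 with cluster 2 left out, 204 with a 50 CPM limit, 219 with UMI bins weighted, 253 with barcodes thinned to 500 UMIs. Of these, leaving out cluster 2 and weighting clusters and UMI bins together were chosen after seeing the data. Under the other alternatives both counts stayed within 1.5 times. Ribosomal protein, endoplasmic reticulum, matrix, noncoding RNA and splicing lists held 0 genes higher under every alternative run; 1 oxidative phosphorylation gene was higher with comparison barcodes under 0.25% and 1 inflammatory gene with UMI bins weighted. Ribosomal protein genes lower, 1 of 79, were 0 with members from 1%, at least 1000 UMIs, UMI bins weighted, clusters weighted, a 2-fold limit, clusters and UMI bins weighted and cluster 2 left out, 2 with members from 2%, 3 with barcodes thinned to 500 UMIs, 4 with members from 3%. Oxidative phosphorylation genes lower, 4 of 70, were 0 with UMI bins weighted, a 2-fold limit, clusters and UMI bins weighted and cluster 2 left out, 1 with members from 1%, MALAT1 out of the denominator and clusters weighted, 2 with comparison barcodes under 0.25%, at least 1000 UMIs, members up to 5%, the deepest 5% of barcodes left out and MALAT1 and ribosomal proteins out of the denominator, 7 with every barcode under 1.5% as comparison, 10 with members from 2%, 14 with members from 3%. Inflammatory genes lower, 1, were 0 with members from 1%, comparison barcodes under 0.25%, at least 1000 UMIs, members up to 5%, the deepest 5% of barcodes left out, MALAT1 out of the denominator, MALAT1 and ribosomal proteins out of the denominator, TMM, the median of ratios, clusters weighted and a 2-fold limit, 2 with members from 3%, 3 with members from 2%. Matrix genes lower, 1, were 0 with at least 1000 UMIs, barcodes thinned to 500 UMIs, UMI bins weighted, clusters weighted, a 50 CPM limit, clusters and UMI bins weighted and cluster 2 left out. Endoplasmic reticulum genes lower, 0, were 1 with members from 3%, 2 with barcodes thinned to 500 UMIs. Splicing genes lower, 7, were 0 with clusters weighted, clusters and UMI bins weighted and cluster 2 left out, 1 with a 2-fold limit, 3 with UMI bins weighted. NFIB reversed, to a log2 ratio of 0.027 without cluster 2 and 0.021 with clusters and UMI bins weighted, and so did KLF4 (0.31) and MT1M (0.25) with both weighted; the cause was not tested. With MALAT1 out of the denominator, the split of calls was 101 higher and 324 lower, and with all UMIs as denominator 26 and 580; the median log2 ratio of the 7654 genes was then 0.01 and -0.14, and -0.07 as reported. Of the other log2 ratios of single genes 2786 stayed within the counting interval and 361 moved. Of the summed log2 ratios of lists 403 stayed within it and 310 moved. Of the other list counts 966 stayed and 138 moved. Depth limits the members most, since a gene at 20 CPM has under 30 UMIs there.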
